A study of Mus musculus with 8 samples.

Results

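Cell-surface and related serine proteases and inhibitors of such enzymes were followed at the mRNA level in mouse pancreatic ductal adenocarcinoma (PDAC) cells in which *Smad4* can be switched off and on. The set held 8 of the 53465 genes of the count table, taken by gene symbol: the proteases *Tmprss2*, *Tmprss4*, *St14*, *Prss8*, *Prss22* and *Hpn* and the inhibitors *Spint1* and *Spint2*. Its genes were selected on their measured CPM and changes across the groups of these same libraries, so their levels and changes are a description and carry no p-values here. The filter on low counts kept 5 of the 8 genes, *Tmprss2*, *Prss22*, *St14*, *Spint1* and *Spint2*. *Tmprss4*, *Prss8* and *Hpn* did not pass it and are given by their counts. In both lines *Tmprss2* was lower and *Prss22* higher under TGFβ1 than under inhibition of its receptor, in either *Smad4* state, and *Spint2* was lower under TGFβ1 by a smaller factor than *Tmprss2*.

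RNA-seq of these cells addressed which genes respond to *Smad4* restoration and to TGFβ. The 8 libraries came from B73 and B87, which are separate PDAC lines derived from primary tumors of KC-shSmad4 mice. All groups carried the same alleles, among them Ptf1a-Cre, which is active in the pancreas, a Cre-dependent rtTA3 with an mKate2 reporter, and a doxycycline (Dox)-inducible short hairpin RNA against *Smad4*. The 4 groups were Smad4 off (on Dox) and Smad4 on (5 days without Dox), each treated for 24 h with 100 pM TGFβ1 or with 2.5 µM SB505124, which inhibits the TGFβ type I receptor kinase. Every group had 1 library per line, so n = 2 and the spread given is that between the lines, with line and culture not separable. No group was left without TGFβ1 or inhibitor, so changes with TGFβ1 are differences from SB505124, and the effects of the 2 agents cannot be told apart. No line with a control hairpin was among these libraries, so an effect of Dox itself and an effect of *Smad4* cannot be told apart.

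Library totals ran from 18389235 to 23440550 counts, at which 3 counts, taken as the limit of detection, correspond to 0.128 to 0.163 CPM (counts scaled to a common library total). Such limits cover counting error only. *Smad4* mRNA, the hairpin target, was 35.1 ± 0.601 CPM in Smad4-off and 116 ± 1.06 CPM in Smad4-on cells under TGFβ1, and 34.3 ± 0.873 and 106 ± 11.6 CPM under SB505124 (SD, n = 2). On the log2 scale it was higher by 1.73 ± 0.09 (SE, adjusted p = 0.00084 by edgeR) and by 1.62 ± 0.09 (adjusted p = 0.00234 by edgeR). The hairpin thus left part of the *Smad4* mRNA, and Smad4 off means lowered, not absent, *Smad4* mRNA. The labelled cell type was checked with ductal markers, of which 7 of 7 were detected with a summed level of 1220 to 6200 CPM per library, although *Epcam* reached only 3 to 39 counts. Of the acinar markers, 5 of 5 had no count in any library.

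Trypsin-like serine proteases of the cell surface are made as inactive zymogens and become active when a peptide bond is cleaved, often by another member of the family. Matriptase, the product of *St14*, activates the growth factor HGF and other substrates at epithelial surfaces, and together with prostasin (*Prss8*) it takes part in building epithelial barriers. *Tmprss2*, *Tmprss4* and *Hpn* (hepsin) encode further transmembrane proteases of epithelia, while *Prss22* encodes tryptase epsilon, a tryptase of airway epithelium. *Spint1* and *Spint2* encode the Kunitz-type transmembrane inhibitors HAI-1 and HAI-2, which block matriptase, hepsin and related enzymes. Protein and enzyme activity were not measured here, and all values below are mRNA. A gene is named as called where edgeR gave an adjusted p under 0.05 over all tested genes and a change of more than 2-fold.

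The proteases share the sequence around the serine that attacks the substrate, and it is printed to show how the members are related and how they differ. Each line gives 30 coding bases, 5′ to 3′, from the longest open reading frame among the GENCODE M21 transcripts of the gene on GRCm38, with the codon of the catalytic serine in capitals.
Tmprss2: tgccagggagacAGTggagggccgctggtt
Tmprss4: tgccagggtgacAGTggtgggcctttgatg
Hpn: tgccagggcgacAGTggaggcccctttgtg
St14: tgccagggtgacTCTggtggccccttgtca
Prss8: tgccagggtgacTCTgggggcccactctct
Prss22: tgtctgggcgacTCTgggggtcccctgatg
The serine codon was AGT in *Tmprss2*, *Tmprss4* and *Hpn* and TCT in *St14*, *Prss8* and *Prss22*. Of the 30 bases, *Tmprss4* and *Hpn* each had 24 in common with *Tmprss2*, *Prss8* had 21, and *St14* and *Prss22* had 20. No stretch of this kind was found in *Spint1* or *Spint2*, which are not proteases. Despite this kinship, 0% of the 75-base stretches in the transcripts of any member occurred in transcripts of another gene, so reads of the length sequenced could be assigned among them.

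*Tmprss2*, on chromosome 16 (GRCm38, 97564684 to 97611195, minus strand, ENSMUSG00000000385), was the member with the largest spread between treatments. In B73 it had 1129 counts in Smad4-off and 1760 in Smad4-on cells under SB505124, against 121 and 49 under TGFβ1. In B87 the counts were 449 and 576 under SB505124 and 31 and 15 under TGFβ1. All 4 TGFβ1 libraries lay below all 4 SB505124 libraries, with 0.764 to 5.18 CPM against 19.7 to 95 CPM. Among all 14301 tested genes, 26.2% had treatment ranges that did not overlap in this way.

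Per group, *Tmprss2* averaged 38 ± 25.9 CPM in Smad4-off and 59.5 ± 50.3 CPM in Smad4-on cells under SB505124 (SD, n = 2). Under TGFβ1 the averages were 3.36 ± 2.57 and 1.63 ± 1.23 CPM (SD, n = 2). B73 had the higher level in every group, whereas the ratios of the treatments in a given *Smad4* state were close between the lines. Under TGFβ1 *Tmprss2* was 10.9-fold lower than under SB505124 in B73 and 12.8-fold lower in B87 in Smad4-off cells, and 38-fold and 31.3-fold lower in Smad4-on cells. In the edgeR model the log2 fold change was -3.55 ± 0.16 (SE) in Smad4-off and -5.12 ± 0.18 in Smad4-on cells, and *Tmprss2* was called lower in both comparisons. With no replicate block, which leaves the pairing by line out of the model, the first value was -3.49 and was no longer called, and the second was -5.18 and still called. In these bulk libraries, fewer cells that make a transcript and less transcript per cell cannot be told apart.

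The *Smad4* state went with opposite differences of *Tmprss2* under the 2 treatments. Under SB505124 the Smad4-on level was 1.69 times the Smad4-off level in B73 and 1.21 times in B87, a modeled log2 fold change of 0.53 ± 0.13 (SE) that was not called. Under TGFβ1 it was 2.07-fold lower in B73 and 2.02-fold lower in B87, or -1.04 ± 0.2, just past the 2-fold limit, and *Tmprss2* was called lower. That call was absent, at values of -1.05 to -1, with no replicate block, in a fit of only the 4 TGFβ1 libraries and without any one of them, so it rested on each. The difference between the treatments in the *Smad4* effect was -1.56 ± 0.24 on the log2 scale. It was not called by edgeR, but was called by DESeq2 with the line (-1.57) and by edgeR without the filter on low counts (-1.59).

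**Figure D1:**
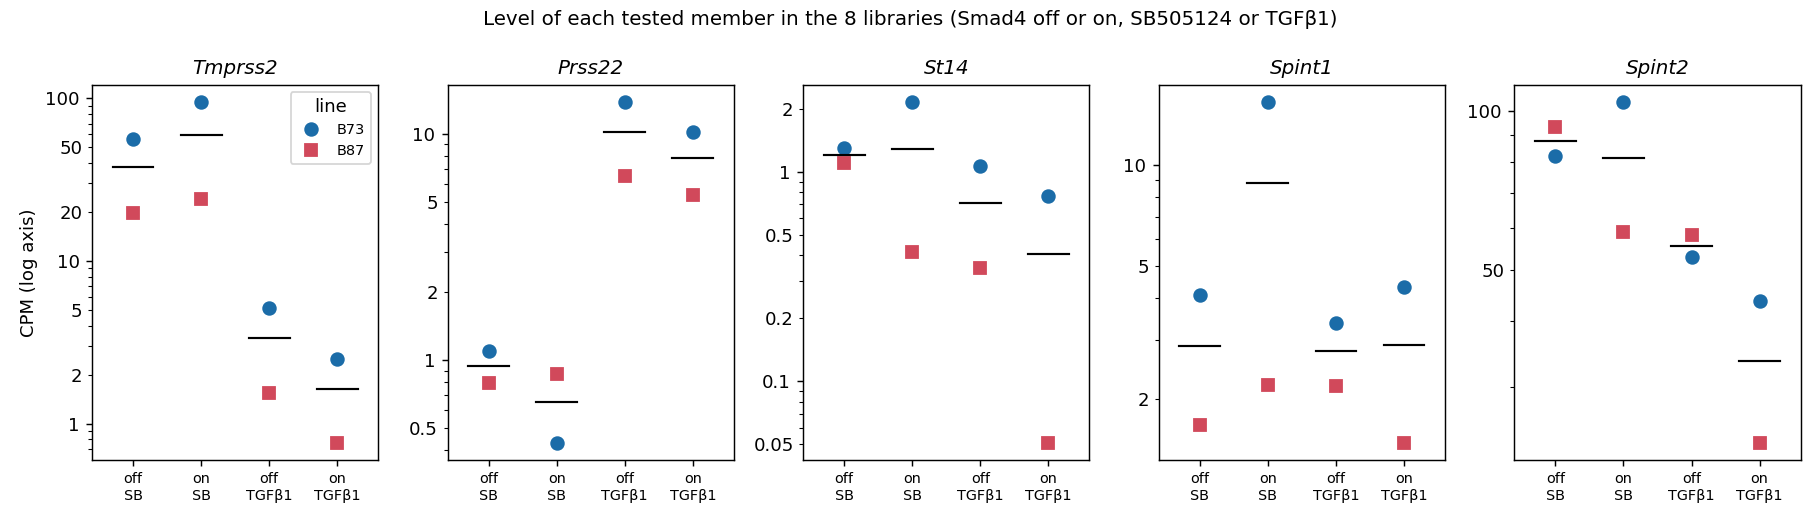
Level of each of the 5 tested genes in CPM (log axis) in the 8 libraries, by *Smad4* state and treatment (SB, SB505124). Points are libraries of B73 (circles) and B87 (squares) and black lines are group means (n = 2). *Tmprss2* falls from 19.7 to 95 CPM under SB505124 to 0.764 to 5.18 CPM under TGFβ1, while *Prss22* moves from 0.432 to 1.1 CPM up to 5.35 to 13.8 CPM.

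Markers of other cell types were low or moved with line and treatment. Fibroblast markers, of which 4 of 6 were detected, summed to 5.56 to 133 CPM under SB505124 and 10.6 to 652 CPM under TGFβ1 and were mainly *Col1a1* in B87, while *Lum* had no count and *Dcn* at most 3 in a library. Endothelial markers (3 of 4) summed to 0.702 to 5.18 and 3.42 to 26 CPM, and immune markers (1 of 6, *Cd68*) to 2.15 to 6.43 and 1.32 to 3 CPM, with at most 3 counts of *Ptprc* in a library and none of *Adgre1* or *Cd3e*. The part of any such cells in the levels of *Tmprss2*, *Prss22* or *Spint2* was not tested.

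*Prss22*, on chromosome 17 (23993535 to 23998100, minus strand, ENSMUSG00000045027), went the opposite way. In B73 it had 22 counts in Smad4-off and 8 in Smad4-on cells under SB505124, and 323 and 200 under TGFβ1. In B87 the counts were 18 and 21, and 130 and 105. The TGFβ1 libraries (5.35 to 13.8 CPM) therefore lay above all SB505124 libraries (0.432 to 1.1 CPM). Smad4-off and Smad4-on means were 0.944 ± 0.217 and 0.652 ± 0.312 CPM under SB505124, and with TGFβ1 they were 10.2 ± 5.2 and 7.77 ± 3.43 CPM (SD, n = 2).

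With TGFβ1 *Prss22* was called higher in either *Smad4* state, by 3.41 ± 0.45 (SE, log2) in Smad4-on and by 3.37 ± 0.43 in Smad4-off cells. The difference between them, 0.04 ± 0.59, was not called, and its error is too wide to show that they are alike. Per line, the rise was 12.6-fold in B73 and 8.19-fold in B87 in Smad4-off cells, and 23.6-fold and 6.13-fold in Smad4-on cells. The last pair depends on 8 and 21 counts in the Smad4-on SB505124 libraries: without that of B73 the modeled value was 2.62, and without that of B87 it was 4.53. The Smad4-off value was 3.42 and was not called with no replicate block. Between *Smad4* states *Prss22* was not called, with log2 fold changes of -0.37 ± 0.35 under TGFβ1 and -0.41 ± 0.53 under SB505124.

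Genes within 100 kb of *Prss22* were then read, a window chosen after values had been seen. Of 11 such genes 3 were tested, *Prss27*, *Kctd5* and *Pdpk1*. *Prss27*, which encodes another trypsin-like protease (pancreasin) and starts 40 kb away at 24038144, had 1 and 2 counts in the B73 and none in the B87 SB505124 libraries. Under TGFβ1 it had 24 and 18 counts in B73 and 9 and 11 in B87, Smad4 off before Smad4 on. It was called higher in Smad4-on (edgeR adjusted p = 0.0105) and Smad4-off cells (edgeR adjusted p = 0.0168), and in neither with no replicate block (edgeR adjusted p = 0.0817 and 0.139). The Smad4-on call was also absent without the B87 Smad4-on SB505124 library (edgeR adjusted p = 0.0503) and the Smad4-off call without any one of the 4 Smad4-off libraries (edgeR adjusted p = 0.078 to 0.119), and DESeq2 gave no adjusted p for the latter.

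*Kctd5*, 49.6 kb from *Prss22*, encodes an adaptor of a ubiquitin ligase and had the highest correlation with it (r = 0.988 of log2 CPM over 8 libraries that share treatment and line, among 11099 genes, 243 of them above 0.9). It stood at 61.1 to 66.7 CPM in the SB505124 libraries and at 102 to 119 CPM in the TGFβ1 libraries. With TGFβ1 it was higher by 0.85 ± 0.09 on the log2 scale in the Smad4-on state (SE, edgeR adjusted p = 0.000691) and by 0.76 ± 0.09 in the Smad4-off state (edgeR adjusted p = 0.00298), under the 2-fold limit for a call. *Pdpk1*, 75.6 kb away, had values of -0.19 ± 0.08 and -0.14 ± 0.08 and was not called.

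The same window around the other tested members held 8 tested genes for *Spint1*, 9 for *Spint2*, 2 for *St14* and 0 for *Tmprss2*. Calls in these windows stand beside the same shares of all tested genes, 13.9% and 5.93%, and nothing about the windows is read from them. *Rhov*, 19.7 kb from *Spint1*, had 23 and 38 counts in B73 and 4 and 13 in B87 under SB505124 and 1 or 2 in every TGFβ1 library. It was called lower in Smad4-on cells (edgeR adjusted p = 0.00287) and Smad4-off cells (edgeR adjusted p = 0.027), the latter not by DESeq2 (adjusted p = 0.113), and in neither with no replicate block (edgeR adjusted p = 0.0637 and 0.258). Its Smad4-on call was absent without the B73 Smad4-on TGFβ1 library (edgeR adjusted p = 0.0766), and its Smad4-off call without any Smad4-off library or the B73 Smad4-on SB505124 library (edgeR adjusted p = 0.0526 to 0.39). *Ppp1r14a*, 7.4 kb from *Spint2*, encodes an inhibitor of myosin phosphatase and had 11 to 16 counts under SB505124 and 0 to 4 under TGFβ1. It was called lower in Smad4-on cells (edgeR adjusted p = 0.018), but not by DESeq2 (adjusted p = 0.0569), with no replicate block (edgeR adjusted p = 0.0547) or without the B73 Smad4-on TGFβ1 library or either Smad4-on SB505124 library (edgeR adjusted p = 0.0564 to 0.0851). Besides these, *Aplp2* near *St14* was called lower in Smad4-on cells and is described with the inhibitors.

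**Figure D2:**
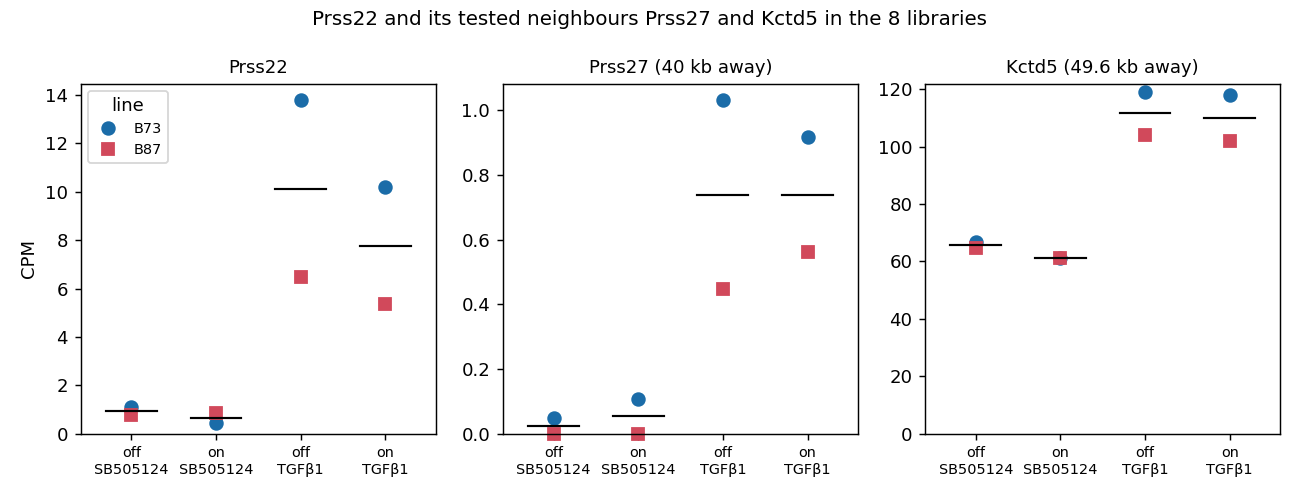
CPM (linear axes from 0, a separate scale per panel) of *Prss22* and of its neighbors *Prss27* and *Kctd5* in the 8 libraries, by *Smad4* state and treatment. Circles are B73, squares B87 and black lines group means (n = 2). In each panel the 4 TGFβ1 libraries lie above the 4 SB505124 libraries, from a level near 0 for *Prss27* and from 61.1 to 66.7 CPM for *Kctd5*.

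*St14*, on chromosome 9 (31089402 to 31131853, minus strand, ENSMUSG00000031995), was scarce in all libraries. B73 had 26 and 40 counts under SB505124 and 25 and 15 under TGFβ1, Smad4 off before Smad4 on. B87 had 25 and 10, then 7 and 1. The ranges of the treatments overlapped (0.416 to 2.16 CPM against 0.0509 to 1.07 CPM), and *St14* was not called in any comparison. TGFβ1 went with log2 fold changes of -1.62 ± 0.69 (SE) with *Smad4* and -0.97 ± 0.63 without it, of the same sign in both lines. Leaving out 1 library moved these values from -3.58 to -0.84 and from -2.11 to -0.06, with the lowest of the first without the B73 Smad4-on TGFβ1 library and the highest of both without an SB505124 library. The first was called without either Smad4-off SB505124 library (-1.7). Under SB505124 the lines differed in sign with *Smad4*, at 0.7 in B73 and -1.22 in B87. A processed pseudogene on the other strand, Gm16071, lies within *St14*, and whether the counting used strand is not stated.

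The remaining proteases were at or under the limit of detection in most libraries. *Tmprss4* (chromosome 9, 45172726 to 45204092) had 0 counts in all 8 libraries, which allows up to 0.163 CPM. *Prss8* (chromosome 7, 127925716 to 127930104) had 12 counts in all, at most 5 in a library (0.249 CPM). It overlaps the protein-coding gene *Kat8* on the other strand, and a part of *Kat8* reads in its counts was not tested. *Hpn* (chromosome 7, 31098725 to 31115290) had 4 counts, all in the B87 SB505124 libraries. A change in these 3 genes was not detectable at this depth.

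*Spint2*, on chromosome 7 (29256323 to 29281912, minus strand, ENSMUSG00000074227), had the most counts of the 8 genes in each library. In B73 it had 1650 and 1923 counts under SB505124 and 1236 and 855 under TGFβ1, Smad4 off before Smad4 on. In B87 the counts were 2129 and 1418, then 1168 and 462. The TGFβ1 libraries, at 23.5 to 58.1 CPM, lay just below the SB505124 libraries, at 58.9 to 104 CPM, with the closest pair both from B87. Group means were 87.9 ± 7.9 and 81.4 ± 31.7 CPM under SB505124 and 55.5 ± 3.69 and 33.6 ± 14.2 CPM under TGFβ1 (SD, n = 2).

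In Smad4-on cells the log2 fold change of *Spint2* with TGFβ1 was -1.28 ± 0.29 (SE), from -1.25 in B73 and -1.32 in B87, and it was called lower. That call was absent with no replicate block (-1.28), without the B73 Smad4-on SB505124 library (-0.91) and without the B87 Smad4-on TGFβ1 library (-0.96). In Smad4-off cells the value was -0.67 ± 0.28, with -0.64 and -0.68 in the lines, and was not called. The 2 values were not shown to differ (-0.61 ± 0.4, not called). With *Smad4* the lines differed from each other: under SB505124 *Spint2* was 1.26-fold higher in Smad4-on B73 and 1.59-fold lower in Smad4-on B87, and under TGFβ1 it was 1.21-fold and 2.47-fold lower.

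*Spint1*, on chromosome 2 (119237362 to 119249527, plus strand, ENSMUSG00000027315), was high in a single library. B73 had 82 and 285 counts under SB505124 and 79 and 85 under TGFβ1, and B87 had 38 and 53, then 44 and 29. The B73 Smad4-on SB505124 library stood at 15.4 CPM, and the other libraries ran from 1.48 to 4.33 CPM. *Spint1* was not called in any comparison. Its *Smad4* effect under SB505124 was 1.33 ± 0.47 (SE), 1.89 in B73 and 0.38 in B87, and its TGFβ1 effect was -1.36 ± 0.47 with *Smad4* and 0.06 ± 0.49 without it. Without the B73 Smad4-on SB505124 library the *Smad4* effect under SB505124 was 0.31 and the TGFβ1 effect with *Smad4* -0.33, and without that of B87 they were 1.98 and -2, the latter called. In Smad4-on cells *Spint1* was thus lower under TGFβ1 in both lines, at -1.81 in B73 and -0.55 in B87 on the log2 scale, as was *Spint2*, and a difference between the inhibitors was not tested.

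Promoters are shown for the members called lower under TGFβ1, and none was matched for *Prss22*, which was called higher. As background, SMAD complexes bind short CAGAC boxes, and repressors of epithelial genes such as Snail and Zeb bind CACCTG E-boxes. A part of either in the levels of these genes was not tested. RefSeq promoter sequences (GRCm38.p6) matched 4 of the 8 members, *Tmprss2*, *Spint1*, *Spint2* and *Hpn*. The 250 bases before the start of *Tmprss2* (chr16:97611196-97611445, minus strand) and of *Spint2* (chr7:29281978-29282227, minus strand) are printed 5′ to 3′ along the gene, with each CAGAC and CACCTG in capitals, on either strand (GTCTG and CAGGTG on the other strand).
Tmprss2: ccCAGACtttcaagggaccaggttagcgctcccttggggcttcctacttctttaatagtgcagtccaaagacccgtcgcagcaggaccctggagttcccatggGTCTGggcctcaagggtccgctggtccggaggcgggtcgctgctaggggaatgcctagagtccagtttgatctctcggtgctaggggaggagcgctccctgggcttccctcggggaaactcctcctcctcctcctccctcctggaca
Spint2: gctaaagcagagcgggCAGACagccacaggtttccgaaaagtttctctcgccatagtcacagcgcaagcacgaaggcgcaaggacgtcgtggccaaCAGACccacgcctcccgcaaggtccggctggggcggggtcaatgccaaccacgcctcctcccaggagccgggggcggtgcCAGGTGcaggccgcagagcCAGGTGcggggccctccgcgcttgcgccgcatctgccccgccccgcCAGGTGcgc
*Tmprss2* held 2 CAGAC boxes, at 248 and 147 bases before the start, and no CACCTG. *Spint2* also held 2 CAGAC boxes, at 234 and 154 bases, and 3 CACCTG boxes at 74, 55 and 9 bases. Among 32851 promoters of this length, 42.2% had at least 1 CAGAC and 11.7% had 2 or more, while 17.2% had at least 1 CACCTG and 0.247% had 3 or more. These shares were not matched for GC content, which was 61.6% for *Tmprss2*, 69.6% for *Spint2* and 52.4% at the median of all promoters. The AP-1 motif TGAGTCA was in neither printed promoter and in 4.46% of all promoters. Of the promoters not printed, that of *Spint1*, not called, held 1 CAGAC and no CACCTG. For *Hpn*, with at most 2 counts in a library, a promoter held 1 CAGAC and 2 CACCTG and another held neither. No printed match overlapped another, a match is not a bound site, and binding was not measured.

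**Figure D3:**
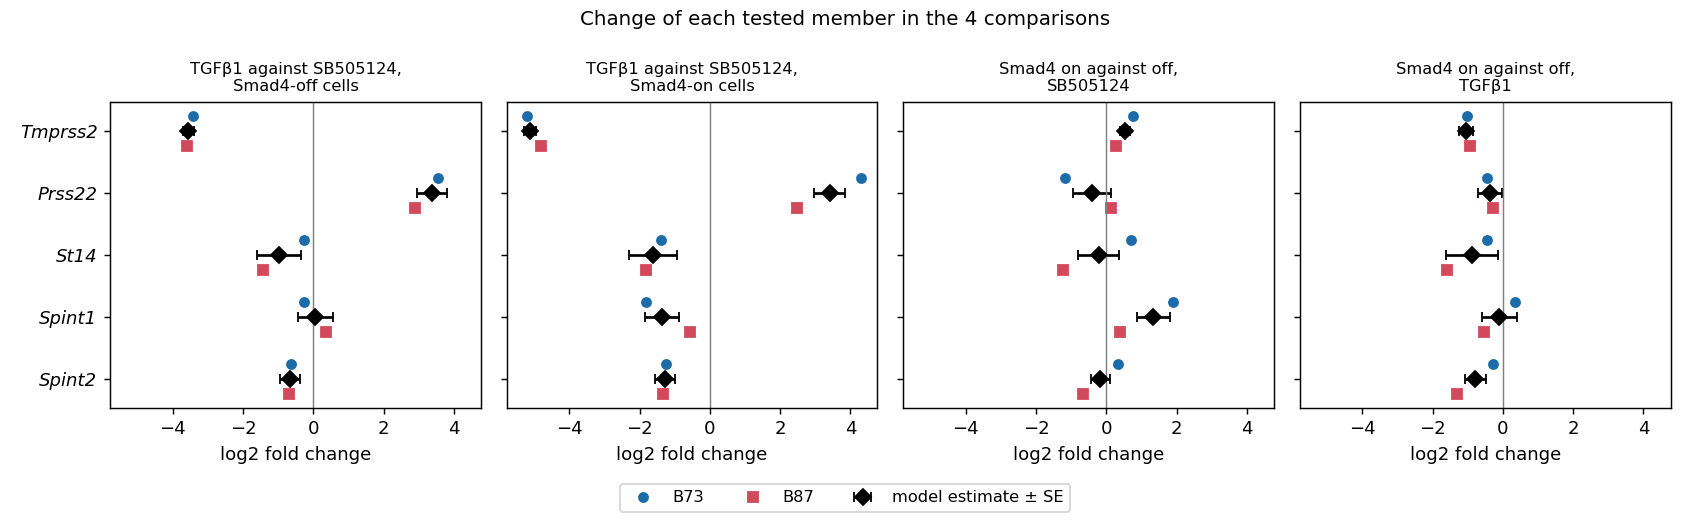
Log2 fold change (horizontal axes, shared scale) of the 5 tested genes in the 4 comparisons. Black diamonds with bars are edgeR estimates ± SE from the model of all 8 libraries, and circles (B73) and squares (B87) are differences of log2 CPM within a line. Under TGFβ1 against SB505124 *Tmprss2* lies far left and *Prss22* far right in both lines, while between *Smad4* states most values are within 2 log2 units of 0.

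With TGFβ1 in Smad4-on cells, *Prss22* was called higher and *Tmprss2* and *Spint2* lower among the 5 tested members, where 13.9% of all tested genes were called, 5.62% higher and 8.31% lower. In Smad4-off cells *Prss22* was higher and *Tmprss2* lower, where 5.93% of all were called, 3.11% higher and 2.82% lower. Between *Smad4* states, 1 member (*Tmprss2*, lower) was called under TGFβ1, where 3.12% of all were and 1.8% were lower, and 0 members under SB505124, where 1.09% were (edgeR; 2 members had an unadjusted p under 0.05, and DESeq2 also called 0). In the difference between these *Smad4* effects, edgeR called 0 members and 0.189% of all genes (1 member had an unadjusted p under 0.05, and DESeq2 called 1). Since the members were picked with these comparisons known, nothing about the family is read from these counts. Between all Smad4-on and all Smad4-off libraries, the ranges of every tested member overlapped, as they did for all but 4.58% of tested genes.

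Per transcript length, the make-up of the family changed from *Tmprss2* to *Prss22* with treatment. For this comparison CPM were divided by the transcript length of the deposited table in kb. That length differs from the longest GENCODE transcript for *Tmprss2* (3159 against 5503 bases), *Spint2* (4556 against 3252), *St14* (7637 against 3550) and *Spint1* (2767 against 2323), so shares are approximate. It also differs for *Prss22* (1323 against 1324) and for the scarcely counted or uncounted *Hpn* (4101 against 1861) and *Tmprss4* (2589 against 2284). Under SB505124 *Tmprss2* made up 46.3% and 50.9% of the summed level in B73 and 22.2% and 34.3% in B87, Smad4 off before Smad4 on. Under TGFβ1 these shares were 6.54% and 4.01%, and 2.57% and 2.42%. *Prss22* took 0.553% to 2.99% under SB505124 and 25.7% to 41.7% under TGFβ1, and *Spint2* remained between 38.6% and 72.8% of the sum in all libraries. With the longest transcripts as lengths, chosen after the data were seen, *Tmprss2* took 10.5% to 30.4% under SB505124 and 1.15% to 3.2% under TGFβ1, and *Prss22* took 0.574% to 2.72% and 20.3% to 35.4%.

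Sums over the family depended on these lengths. In Smad4-on cells the proteases summed to 30.7 CPM per kb in B73 and 8.36 in B87 under SB505124 and to 8.6 and 4.29 under TGFβ1, and with the longest transcripts to 18.2 and 5.21 against 8.37 and 4.19. In Smad4-off cells the table lengths gave 19 and 7.05 under SB505124 against 12.3 and 5.45 under TGFβ1, but the longest transcripts gave 11.6 and 4.58 against 11.7 and 5.29, so no direction is given there. The inhibitors summed to 13.7 to 28.3 CPM per kb under SB505124 and 5.7 to 13.6 under TGFβ1, or 19.1 to 38.6 and 7.86 to 18.8 with the longest transcripts. The ratio of inhibitor to protease mRNA per length was 0.923 to 1.29 in B73 and 1.33 to 3 in B87, and 1.52 to 2.34 and 1.87 to 6.43 with the longest transcripts. These sums compare mRNA and say nothing about protein or activity.

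**Figure D4:**
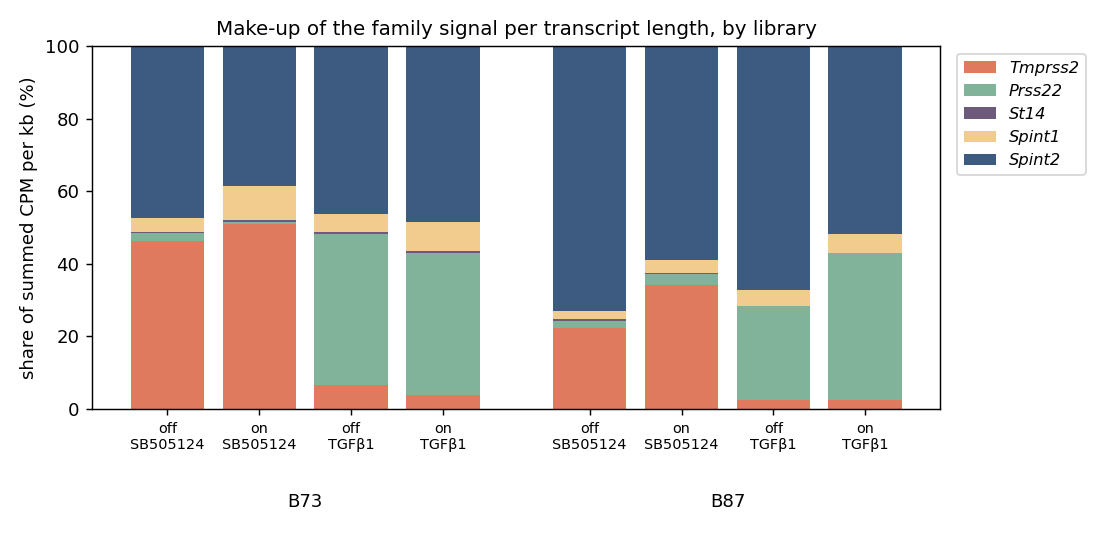
Share of each gene in the summed CPM per kb of transcript (length of the deposited table, %, stacked to 100) in each library, B73 at left and B87 at right, by *Smad4* state and treatment. *Tmprss2* takes 22.2% to 50.9% under SB505124 and 2.42% to 6.54% under TGFβ1, *Prss22* takes 25.7% to 41.7% under TGFβ1, and *Spint2* takes 38.6% to 72.8% throughout.

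Across the 8 libraries, which share treatments and lines, *Tmprss2* and *Spint2* ran together in log2 CPM (r = 0.86), as did *St14* and *Spint2* (r = 0.86) and *Tmprss2* and *St14* (r = 0.78). *Prss22* ran against *Tmprss2* (r = -0.84) and *Spint2* (r = -0.69). The genes most like each member were taken as the 3 with the highest r among tested genes of a mean log2 CPM of at least 1. For *St14* they were *Tjp1* (0.989), which encodes the tight junction protein ZO-1, *Cdh1* (0.985), which encodes E-cadherin, and *Anxa13* (0.981). *Cdh1* stood at 325 and 468 CPM under SB505124 and at 185 and 109 CPM under TGFβ1 in B73, and at 149 and 80.5, then 63.9 and 11.5 CPM, in B87, within each line the same order of libraries as for *St14*. For *Tmprss2* they were *Gstp1* (0.996), a glutathione transferase gene, *Nr3c2* (0.995), the mineralocorticoid receptor gene, and *Abhd14b* (0.995), with 563 of 11099 genes above 0.9. For *Spint2* they were *Crnde* (0.993), *Fcho1* (0.987) and *Myrf* (0.984), for *Spint1* they included *Ggta1* (0.978) and *2610035D17Rik* (0.971), and for *Prss22*, after *Kctd5*, *St6gal1* (0.978) and *4931406P16Rik* (0.977). Genes above 0.9 numbered 116 for *St14*, which had only 1 to 40 counts per library, 199 for *Spint2* and 52 for *Spint1*.

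Related genes were read from lists that were also drawn up with earlier results known. Of 25 other cell-surface serine proteases, 24 were in the table and *Prss27*, described above, was the only gene tested. Of 21 other inhibitors of extracellular serine proteases 7 were tested, with a median log2 fold change of 0.12 for TGFβ1 in Smad4-on cells against -0.02 over all genes. There 1 was called higher (*Spink2*) and 2 lower (*Slpi* and *Aplp2*), where 5.62% of all tested genes were called higher and 8.31% lower. *Aplp2*, an amyloid precursor-like gene with a Kunitz domain that lies 17.7 kb from *St14*, fell from 217 to 257 CPM under SB505124 to 106 to 165 CPM under TGFβ1, a log2 difference of -1.2 ± 0.14 (SE) in Smad4-on cells (edgeR adjusted p = 0.00107). *Slpi*, the secretory leukocyte protease inhibitor, had 3 to 65 counts under SB505124 and 0 to 2 under TGFβ1 (edgeR adjusted p = 0.0186 in Smad4-on cells), and *Spink2* had 0 to 6 against 2 to 26 counts (edgeR adjusted p = 0.0178). *Serpine2*, protease nexin-1, was the only one called between *Smad4* states under TGFβ1, at -1.54 ± 0.32 (SE, edgeR adjusted p = 0.0376). In the fit with no replicate block, *Aplp2* stayed called (edgeR adjusted p = 0.00794) and the other 3 were not (edgeR adjusted p = 0.096 for *Slpi*, 0.378 for *Spink2* and 0.819 for *Serpine2*). *Spink2* was not called by DESeq2 either (adjusted p = 0.146). The calls of *Slpi* and *Spink2* were also absent without the B87 Smad4-on SB505124 library or either Smad4-on TGFβ1 library (edgeR adjusted p = 0.0548 to 0.309), and that of *Serpine2* without any one of the TGFβ1 libraries (edgeR adjusted p = 0.103 to 0.316).

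Among 14 substrates and substrate receptors 9 were tested. With TGFβ1 in Smad4-on cells 2 were called higher and 1 lower (median log2 fold change -0.12), where 5.62% and 8.31% of all tested genes were. The urokinase gene *Plau*, whose zymogen matriptase can activate, was higher by 1.22 ± 0.23 (SE, edgeR adjusted p = 0.00742) and its receptor gene *Plaur* by 1.05 ± 0.11 (edgeR adjusted p = 0.000762). *Scnn1a*, a subunit of the epithelial sodium channel on which prostasin acts, was lower, at -1.7 ± 0.37 (edgeR adjusted p = 0.0132). In Smad4-off cells edgeR and DESeq2 called 0 of the 9 (4 had an unadjusted p under 0.05 by edgeR and 3 by DESeq2). Between *Smad4* states both called 0 under TGFβ1 (3 by edgeR and 4 by DESeq2 at an unadjusted p under 0.05), and *Plau* was called lower under SB505124 (-1.44 ± 0.23, edgeR adjusted p = 0.0359). Leaving out the pairing (no replicate block), *Plaur* stayed called (edgeR adjusted p = 0.0137), and *Plau* (0.0825 with TGFβ1, 0.567 with *Smad4*) and *Scnn1a* (0.262) were not. Without 1 library, *Plau* with TGFβ1 was not called when either B87 Smad4-on library was left out (1.17 and 0.87), *Plaur* without the B87 Smad4-on SB505124 library (0.9), *Scnn1a* without either B73 Smad4-on library (-1.21 and -1.51), and *Plau* with *Smad4* without any of 5 libraries, both Smad4-on SB505124, both Smad4-off TGFβ1 and the B73 Smad4-off SB505124 library (edgeR adjusted p = 0.062 to 0.229). In the fit of the 4 SB505124 libraries alone it was not called either (edgeR adjusted p = 0.056). *Hgf*, the ligand that matriptase activates, had 0 to 3 counts per library, whereas its receptor gene *Met* stood at 108 to 234 CPM.

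Of 24 genes of the epithelial state 18 were tested, and with TGFβ1 in Smad4-on cells 10 were called lower and 1 higher, with a median log2 fold change of -1.62, where 8.31% of all tested genes were called lower. Without the B73 Smad4-on SB505124 library 4 were called lower, and without the B73 Smad4-on TGFβ1 library 5. *Grhl3*, which encodes an epithelial transcription factor, had 10 to 19 counts under SB505124 and 0 or 1 under TGFβ1, and *Ehf*, which DESeq2 did not call (adjusted p = 0.0869), had 2 to 24 against 0 to 8. *Cldn4*, a tight junction claudin gene, went the other way, with no count in any SB505124 library and 69 and 906 counts in B73 and 4 and 64 in B87 under TGFβ1. In Smad4-off cells 1 was called higher (*Cldn4*) and 2 lower (*Grhl3* and *Krt19*), with a median of -0.8, where 3.11% and 2.82% of all tested genes were. DESeq2 did not call *Cldn4* there (adjusted p = 0.0743), and edgeR did not without either B73 Smad4-off library (adjusted p = 0.0731 and 0.057). *Grhl3* was not called in Smad4-on cells without either B87 Smad4-on library (edgeR adjusted p = 0.0789 and 0.0835) and in Smad4-off cells without any one of the Smad4-off libraries (edgeR adjusted p = 0.064 to 0.169), and *Krt19* was not without the B87 Smad4-off TGFβ1 library (edgeR adjusted p = 0.0572). Between *Smad4* states *Cldn4* was called higher (3.96 ± 0.25, SE, edgeR adjusted p = 0.00327) and *Crb3*, a cell polarity gene, lower (-1.78 ± 0.35, edgeR adjusted p = 0.0317) under TGFβ1. *Cldn4* was not called by DESeq2 (adjusted p = 0.305) or without either B73 TGFβ1 library (edgeR adjusted p = 0.0641 and 0.0808), and *Crb3* was not called without any one of the TGFβ1 libraries (edgeR adjusted p = 0.0586 to 0.198). Under SB505124 edgeR and DESeq2 called 0 (3 and 1 had an unadjusted p under 0.05). With no replicate block 2 of the 18 were called lower by edgeR with TGFβ1 in Smad4-on cells, where 5 had an unadjusted p under 0.05, and 0 in each other comparison, where 0 or 1 had.

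Of 16 mesenchymal state genes 15 were tested, and with TGFβ1 5 were called higher and 2 lower in Smad4-on cells, and 3 higher and 1 lower in Smad4-off cells, with median log2 fold changes of 0.69 and 0.52. Over all tested genes 5.62% were called higher and 8.31% lower in Smad4-on cells, and 3.11% and 2.82% in Smad4-off cells. The median over all genes was -0.02 in each. The 3 with the largest change in Smad4-on cells were *Tgfbi* (-4.47 ± 1.32, SE, edgeR adjusted p = 0.0386) and *Twist2* (-2.49 ± 0.28, edgeR adjusted p = 0.000967), which were lower, and *Snai1* (2.28 ± 0.56, edgeR adjusted p = 0.0211), the gene of the repressor Snail, which was higher. Without the B73 Smad4-on TGFβ1 library neither *Tgfbi* (edgeR adjusted p = 0.16) nor *Snai1* (edgeR adjusted p = 0.0745) was called, and *Tgfbi* was also not called without either B87 Smad4-on library (edgeR adjusted p = 0.221 and 0.096). In Smad4-off cells *Acta2*, *Fn1* and *Fbn1* were higher by 2.19 ± 0.26, 1.99 ± 0.32 and 1.7 ± 0.26 (edgeR adjusted p = 0.00353, 0.0096 and 0.00787), and without the B87 Smad4-off SB505124 library 1 gene was called and without either Smad4-off TGFβ1 library 2. *Acta2* was the only one called between *Smad4* states, higher by 2.51 ± 0.24 under TGFβ1 and 2.62 ± 0.26 under SB505124 (edgeR adjusted p = 0.00331 and 0.00714). Of all tested genes, 3.12% and 1.09% were called in these comparisons. With no replicate block 1 of the 15 was called, higher, with TGFβ1 in Smad4-on cells. In the difference between the *Smad4* effects, 0 genes of these lists were called by edgeR, with 1 inhibitor, 1 substrate, 4 epithelial and 1 mesenchymal gene at an unadjusted p under 0.05, and DESeq2 called 1 epithelial gene.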

How the data were processed

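Stranded poly(A) libraries were sequenced as single-end reads of 75 bp. Per the labels and the study's methods, the authors trimmed reads with Trimmomatic 0.36, aligned them to GRCm38 (mm10) with STAR 2.5.3a and deposited raw counts per gene from featureCounts 1.6.3, with strand and multi-mapping settings not given in the sources used here. CPM were computed from the deposited counts after TMM normalization. Differential expression used edgeR 4.0.16 in R 4.3.3 (filterByExpr, 14301 genes, quasi-likelihood test, Benjamini-Hochberg), with the 4 groups and the line as terms over all 8 libraries. SE was approximated from the estimate and its F statistic (|log2 fold change|/√F), and within-line differences used a prior count of 2. Adjusted p-values are from this edgeR fit over all tested genes, except where DESeq2 or an alternative fit is named.

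Lines named in the sample titles pair the libraries, and deviations of the lines correlated at 0.642 to 0.774 (median 0.758) over 6 pairs of groups. The 8 members, the gene lists and the rule for like genes were chosen with earlier results of these data known. Of each list and comparison, at most the 3 called genes with the largest change were named, plus *Hgf*, *Met*, *Epcam*, other cell type markers and the genes near members, which were chosen after their values were seen. Alternatives were DESeq2 size factors, DESeq2 1.42.0, no replicate block, other filters on low counts, no fold-change rule, leaving out each library, and fits restricted to the 4 libraries of a comparison. Scripts were tested on simulated counts. An allele shared by all groups and a gene like *Spint1* are not reported here.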

Additional observations from a re-analysis of the deposited data

Results flagged for a closer look

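*Tmprss2* was flagged because its difference between *Smad4* states had opposite signs under the 2 treatments in both lines. In log2 CPM, Smad4-on minus Smad4-off was -1.02 in B73 and -0.93 in B87 under TGFβ1, and 0.75 in B73 and 0.28 in B87 under SB505124. The difference between these effects was -1.56 ± 0.24 (SE) in the edgeR model and was not called by edgeR, while DESeq2 with the line called it. The TGFβ1 values rest on 121, 49, 31 and 15 counts and the SB505124 values on 449 to 1760 counts.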

How the results depend on the processing

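Of 335 values of single members under the alternatives, 296 kept their direction and their side of the call, 18 changed sign, 11 lost and 10 gained a call. With no replicate block, which drops the pairing by line, genes called fell from 446 to 36 and from 156 to 2 for *Smad4* under TGFβ1 and SB505124, from 1993 to 1035 and from 848 to 168 for TGFβ1 in Smad4-on and Smad4-off cells, and from 27 to 0 for the difference of *Smad4* effects. Members called fell from 1 to 0 for *Smad4* under TGFβ1 and from 2 to 0 for TGFβ1 in Smad4-off cells. Without the filter on low counts 783, 403 and 284 genes were called for *Smad4* under TGFβ1, under SB505124 and for their difference, and 1, 5 and 1 members for *Smad4* under SB505124, TGFβ1 in Smad4-on cells and the difference. With at least 10 counts in every library, which leaves 3 members tested, 297, 77, 1293 and 519 genes and, in Smad4-off cells, 1 member were called. With no fold-change rule 973, 4751 and 1888 genes were called for *Smad4* under TGFβ1 and for TGFβ1 in Smad4-on and Smad4-off cells. Fitting only the 4 libraries compared gave 73 genes for *Smad4* under SB505124, 0 members for *Smad4* under TGFβ1 and 5 members for TGFβ1 in Smad4-on cells. DESeq2 with the line called 134 genes and 1 member in the difference. Shares of all genes are not given beside the member counts of these settings, so nothing about the family is read from them.

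Leaving out each library gave 156 to 453, 46 to 161, 1567 to 2101, 377 to 879 and 0 to 14 genes for *Smad4* under TGFβ1 and SB505124, TGFβ1 in Smad4-on and Smad4-off cells and the difference, and 0 to 1, 0, 2 to 4, 2 and 0 members. The member values whose sign turned had not been called. With no replicate block these were *Spint1* (0.06 for *Smad4* under TGFβ1, -0.04 for TGFβ1 in Smad4-off cells) and *St14* (0.09 for *Smad4* under SB505124). With a library left out they ranged, for *Smad4* under TGFβ1, from -0.69 to 0.04 for *Prss22* and -0.78 to 0.51 for *Spint1*, and under SB505124 from -1.34 to 0.72 for *St14*, -1.53 to 0.37 for *Prss22* and -0.51 to 0.2 for *Spint2*. *Spint1* ran from -0.56 to 0.73 for TGFβ1 in Smad4-off cells, and the difference from -2.66 to 0.41 for *St14* and -0.74 to 1.16 for *Prss22*. The cause of these changes was not tested. With the longest GENCODE transcripts as lengths, an alternative chosen after seeing the data, the log2 ratio of summed protease CPM per kb, TGFβ1 over SB505124, turned in Smad4-off cells, to 0.02 (B73, from -0.63) and 0.21 (B87, from -0.37). No scaling moved the median of all genes by over 0.1. Low counts limit *St14*, *Prss8*, *Hpn* and *Tmprss4* most.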
